A study of Rattus norvegicus with 8 samples.

Results

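The cyclic nucleotide phosphodiesterases studied here are 10 RefSeq records, 1 for each of Pde1a (NM_030871), Pde1b (NM_022710), Pde1c (NM_031078), Pde2a (NM_031079), Pde3b (NM_017229), Pde4a (NM_013101), Pde4b (NM_017031), Pde4d (NM_017032), Pde5a (NM_133584) and Pde10a (NM_022236). They were chosen by identifier, by a rule that uses no measured value but was set with earlier results of these data known, and all 10 were among the 18314 records of the files. Every identifier belonged to the gene of that name in RefSeq. The RNA came from the right stellate ganglion, a sympathetic ganglion whose neurons innervate the heart, of 4 Wistar rats and of 4 rats of the spontaneously hypertensive strain (SHR). All rats were 16 weeks old and, by the study's methods, male, and each library held the RNA of 1 desheathed ganglion. Neither strain carried a transgene or received a treatment. The Wistar rat is the normotensive control, and because the strains differ in their whole genetic background, blood pressure and strain cannot be told apart.

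Phosphodiesterases end cyclic nucleotide signals by cleaving cyclic AMP (cAMP), cyclic GMP (cGMP) or both to the plain monophosphates. The families differ in substrate and in what controls them, so the set of enzymes that a cell expresses shapes how its cAMP and cGMP pools act on protein kinases and ion channels. In sympathetic neurons these messengers act on calcium entry and on the release of noradrenaline.

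Estimated counts summed to between 25820299 and 35509074 per rat, and the totals of the strains overlapped. The ganglia carried their defining neuronal markers. Th, which encodes tyrosine hydroxylase, ranged from 1830 to 2400 TPM, Salmon's measure of level per length of transcript, and Dbh, which encodes dopamine beta-hydroxylase, from 3640 to 6770 TPM. In whole ganglia, fewer cells of a type and less RNA per cell cannot be told apart. The labels give no batch.

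Of the 10 phosphodiesterase records, only that of Pde2a passed the threshold between the strains, an adjusted p under 0.05 in edgeR's quasi-likelihood test over the 13659 records past a filter on low counts. It was lower in SHR. All 10 records passed that filter. Over all tested records 2.85% passed the threshold, 1.69% with a lower and 1.16% with a higher value in SHR, so a single call among 10 records is close to what that background gives. Before adjustment 3 of the 10 had a p under 0.05, against 16.8% of all tested records. The median log2 fold change of the 10 was -0.09, against 0.01 over all tested records.

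**Figure D1:**
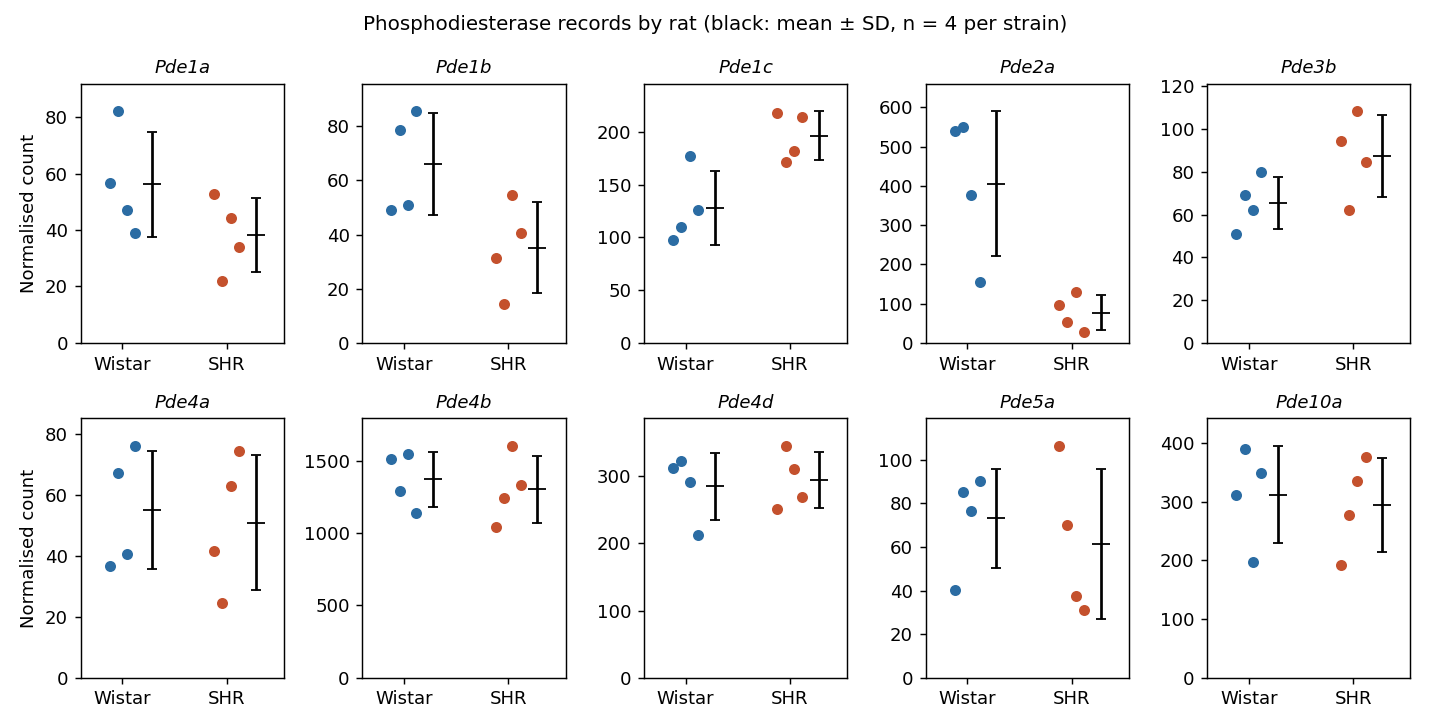
Normalised count of each of the 10 records in every rat, with 1 panel per record, Wistar in blue and SHR in red, and the mean ± SD (n = 4) in black beside the points. Only in the panel of Pde2a do the strains not overlap, with 155 as the lowest Wistar value and 131 as the highest SHR value.

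Pde2a encodes the phosphodiesterase that cGMP activates, so that a rise of cGMP speeds the breakdown of cAMP. Its record here, NM_031079, is 3980 bases long. It had 539, 549.5, 378 and 155 normalised counts in Wistar rats 1 to 4, where a normalised count is the estimated count scaled to a common library size. In SHR 1 to 4 it had 97.2, 54.5, 131 and 27.2. Every SHR lay below every Wistar rat, but Wistar 4 was far nearer to the SHR than to the other Wistar rats. The means were 405 ± 184 for the Wistar rats and 77.4 ± 45.8 for the SHR (SD over 4 rats), a 5.21-fold lower value in SHR. On the log2 scale the difference was -2.38, with a standard error of 0.505 and a 95% interval from -3.51 to -1.26 (edgeR, adjusted p = 0.0353). An exact two-sided permutation test of the counts gave p = 0.02857, the smallest that 4 rats against 4 allow. Strains that do not overlap were found for 10.6% of all tested records.

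The files hold 2 further records of Pde2a, NM_001270604 of 4116 bases and NM_001143847 of 4155 bases. Salmon, the program that made the counts, divides reads that fit several records among them by its model. The estimated counts of the 3 records added up to a whole number (within 0.01) in all 8 rats, whereas the count of NM_031079 alone was whole in 1 rat. The division of Pde2a reads among these records is therefore an estimate in nearly every rat.

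Neither of the other records of Pde2a passed the threshold. NM_001270604 had 284, 545, 371 and 668 normalised counts in Wistar 1 to 4, and 523.5, 698, 647 and 493 in SHR 1 to 4. On the log2 scale SHR differed from Wistar by 0.34, with a standard error of 0.25 (edgeR, adjusted p = 0.52). NM_001143847 had 84.5, 0, 317 and 172 in Wistar and 117, 0, 14.1 and 33.8 in SHR, and it was estimated at 0 in 1 rat of each strain. Its log2 difference of -1.78 was on the same side as that of NM_031079, but with a standard error of 1.22 and a 95% interval from -4.51 to 0.94 it was not determined in sign (edgeR, adjusted p = 0.489). Together these 2 records came to 610 ± 201 normalised counts in the Wistar rats against 632 ± 73.7 in the SHR (mean ± SD of 4 rats), which an exact permutation test did not separate (p = 0.9429).

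When the 3 records were summed before the test, Pde2a no longer passed the threshold in edgeR, the only tool run on the sums. The study, which tested gene-level values of these samples with DESeq2, reported Pde2a as downregulated in SHR at an adjusted p under 0.05. The gene had 888, 1088, 1078 and 1004 normalised counts in Wistar 1 to 4, and 744, 756, 797 and 549 in SHR 1 to 4. The strains still did not overlap (exact permutation test, p = 0.02857), which was the case for 10.9% of all genes tested. The means were 1014 ± 92.2 and 712 ± 111 (SD over 4 rats). The log2 difference was -0.51, with a standard error of 0.136 and a 95% interval from -0.81 to -0.21 (edgeR, adjusted p = 0.0806), and 2.95% of the 13106 genes passed. The 5.21-fold difference of the record thus compares with a 1.43-fold difference of the gene. At gene level Wistar 4 lay among the Wistar rats, with 1004 normalised counts.

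The share of Pde2a reads assigned to NM_031079 was 59.4%, 50.2%, 35.5% and 15.6% in Wistar 1 to 4, and 13.2%, 7.2%, 16.6% and 4.85% in SHR 1 to 4. Wistar 4 thus lay inside the SHR range (exact permutation test, p = 0.05714). The share of NM_001270604 ran from 31.3% to 67.2% in Wistar and from 70.9% to 92.8% in SHR, without overlap (exact permutation test, p = 0.02857). These 3 shares add up to the whole, so their differences are not independent. The call for NM_031079 also rested on the number of rats. Leaving out Wistar 1, 2 or 3, or SHR 1, 2 or 4, gave an adjusted p from 0.0503 to 0.109 in edgeR, whereas the record still passed without Wistar 4 or without SHR 3. The log2 fold change stayed between -2.75 and -2.08 in these fits.

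**Figure D2:**
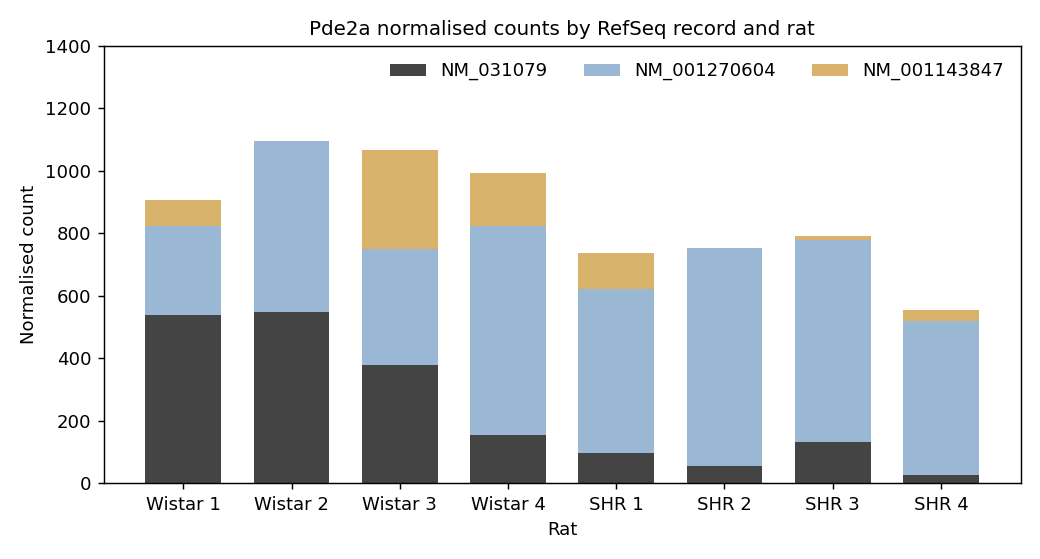
Normalised counts of the 3 Pde2a records in each rat as stacked bars, with NM_031079 in dark grey, NM_001270604 in blue and NM_001143847 in yellow. The dark part runs from 549.5 in Wistar 2 to 27.2 in SHR 4, whereas the blue part is between 284 and 698 in every rat.

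Since the records of Pde2a gave different values, the starts that RefSeq annotates for the gene are shown. The table holds 2 of them in rat build GRCr8, and it does not say which record starts at which. The windows below are the 250 bases before each start, read along the plus strand, with every GC box (GGGCGG on either strand) in capitals.
Pde2a upstream start, chr1:165235373-165235622: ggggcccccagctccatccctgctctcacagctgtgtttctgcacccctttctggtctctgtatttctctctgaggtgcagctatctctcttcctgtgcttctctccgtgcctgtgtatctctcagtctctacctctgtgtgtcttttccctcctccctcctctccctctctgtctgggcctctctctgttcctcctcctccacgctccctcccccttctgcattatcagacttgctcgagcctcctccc
Pde2a downstream start, chr1:165265759-165266008: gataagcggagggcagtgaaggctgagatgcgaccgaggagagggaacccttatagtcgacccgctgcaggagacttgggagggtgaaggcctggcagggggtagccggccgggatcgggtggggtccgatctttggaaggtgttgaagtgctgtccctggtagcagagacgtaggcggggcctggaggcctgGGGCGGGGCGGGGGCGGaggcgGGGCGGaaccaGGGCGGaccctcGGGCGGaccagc
The window of the upstream start held no GC box and 57.2% G or C, whereas that of the downstream start held 6 GC boxes and 68.8% G or C. Several of these boxes lie in the first run of capitals, where the first box shares its last base with the next. A GC box was present in 30.5% of the 33469 windows of all genes, which had a median of 51.2% G or C. Neither Pde2a window held the cAMP response element TGACGTCA, its core TGACG, which is part of the full element, or a TATAAA. The table holds 18 windows for 8 of the 10 genes. The core TGACG was present in 5 of these 18, against 18.2% of all windows, a GC box in 8, TGACGTCA in none (1.59% of all windows) and TATAAA in none (12.9%).

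Pde3b and Pde10a cleave both nucleotides, and neither passed the threshold. Pde3b is the phosphodiesterase that cGMP inhibits, known for its part in insulin action in fat cells. It had 50.9, 69.2, 61.9 and 79.8 normalised counts in Wistar 1 to 4, and 94.2, 62.3, 108 and 84.6 in SHR 1 to 4. SHR 2 lay among the Wistar rats, and the log2 fold change was 0.42 (95% interval -0.13 to 0.97, adjusted p = 0.428 from edgeR). Its estimated counts were not whole in any rat, as for the records among which Salmon divided reads. Of 6 adipocyte markers, the summed level was 8.25 to 71 TPM in Wistar and 6.88 to 160 TPM in SHR. It was highest in SHR 1, whereas Pde3b was highest in SHR 3, where the markers summed to 10.7 TPM. Fabp4 and Adipoq, genes of fat cells, reached 115 and 17.5 TPM in SHR 1 and 50.9 and 5.92 TPM in Wistar 1, whereas Lep and Plin1 were under 1 TPM in every rat. The part of fat cell RNA in the Pde3b values was not tested.

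Pde10a is best known from striatal neurons. It had 312, 389.8, 198 and 349.6 normalised counts in Wistar 1 to 4, and 191, 278, 336 and 376 in SHR 1 to 4. The strains covered nearly the same range, with a log2 fold change of -0.08 (95% interval -0.65 to 0.49, adjusted p = 0.906 from edgeR).

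The PDE1 enzymes cleave both nucleotides and are switched on by calcium and calmodulin. Their 3 records did not lie on the same side. Pde1c had 98, 109.7, 177.5 and 126 normalised counts in Wistar 1 to 4, and 218, 171, 182 and 214 in SHR 1 to 4. Only Wistar 3 reached the SHR range. The means were 128 ± 35 for the Wistar rats and 196 ± 23.3 for the SHR (SD over 4 rats), and the log2 fold change of 0.62 (standard error 0.215, 95% interval 0.14 to 1.1) had an unadjusted p of 0.0165 and did not pass after adjustment (adjusted p = 0.186 from edgeR; exact permutation test, p = 0.05714).

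Pde1b had 49, 78.8, 50.8 and 85.5 normalised counts in Wistar 1 to 4, and 31.4, 14.3, 54.6 and 40.4 in SHR 1 to 4. SHR 3 lay within the Wistar range and SHR 2 was the lowest of all rats, on an estimated count of 11. The log2 fold change was -0.90 (95% interval -1.78 to -0.0082, adjusted p = 0.292 from edgeR). Pde1a ranged from 38.9 to 82 normalised counts among Wistar rats and from 22.1 to 52.6 among SHR, so that the strains overlapped (log2 fold change -0.55, 95% interval -1.34 to 0.24, adjusted p = 0.46 from edgeR). With 11 to 90 counts per rat, Pde1a and Pde1b were among the least covered of the 10. Their intervals are wide, so the size of a difference was poorly determined with these counts and 4 rats per strain.

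The PDE4 enzymes cleave cAMP only and are the targets of rolipram. Pde4b was the most abundant of the 10 records. It had 1513, 1294, 1544 and 1142 normalised counts in Wistar 1 to 4, and 1042, 1242, 1601 and 1332 in SHR 1 to 4. The strains overlapped over most of their range, and the log2 fold change of -0.07 had the narrowest 95% interval of the 10, from -0.41 to 0.26 (adjusted p = 0.84 from edgeR). The record of Pde4d ranged from 213 to 324 normalised counts among Wistar rats and from 252 to 345 among SHR (log2 fold change 0.05, 95% interval -0.35 to 0.44, adjusted p = 0.927 from edgeR).

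Pde4d has 5 records in the files, among which its reads were divided in the same way as for Pde2a, with whole sums in all 8 rats. The record studied here held 72% to 84.1% of them in Wistar and 73.8% to 87.2% in SHR, and these ranges overlapped (exact permutation test, p = 0.5714). Summed over the 5 records Pde4d had a log2 fold change of 0.02 (95% interval -0.33 to 0.36, adjusted p = 0.974 from edgeR). In contrast to Pde2a, the record and the gene thus gave close values. Pde4a ranged from 36.5 to 76 normalised counts among Wistar rats and from 24.6 to 74.2 among SHR, with a log2 fold change of -0.11 (95% interval -0.98 to 0.77, adjusted p = 0.921 from edgeR).

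Pde5a encodes the phosphodiesterase specific for cGMP that sildenafil inhibits, and it is abundant in vascular smooth muscle. It had 40.4, 85.2, 76.7 and 90.2 normalised counts in Wistar 1 to 4, and 106, 70.1, 37.6 and 31 in SHR 1 to 4. SHR held both the highest and the lowest values, so that its coefficient of variation was 56.4% there against 30.8% in Wistar. The log2 fold change was -0.26 (95% interval -1.19 to 0.67, adjusted p = 0.796 from edgeR).

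The summed level of 7 smooth muscle and pericyte markers was 74.8, 149, 134 and 150 TPM in Wistar 1 to 4, and 152, 124, 39.1 and 50.9 TPM in SHR 1 to 4. The 3 rats with the lowest marker sums, Wistar 1, SHR 3 and SHR 4, were also the 3 with the lowest Pde5a. The order of the sums largely follows 1 gene, Tagln, which made up most of the sum except in SHR 3 and SHR 4. It held 103 of 124 TPM in SHR 2 and 13.6 of 39.1 TPM in SHR 3. Tagln ranged from 13.6 TPM in SHR 3 and 21.9 TPM in SHR 4 to 121 TPM in Wistar 4. Acta2 was also lowest in SHR 3, at 0.877 TPM, but otherwise did not follow Pde5a. It was next lowest, at 1.79 TPM, in Wistar 4, the Wistar rat with the highest Pde5a. In Wistar 1 it had 2.54 TPM, above the 2.08 TPM of SHR 2. Myh11 was lowest in SHR 2, at 0.869 TPM, with 1.98 TPM in SHR 3 and at most 2.44 TPM. Cnn1 was under 1 TPM in every rat. None of the 7 marker records passed the threshold between the strains in edgeR or in DESeq2, and 0 had an unadjusted p under 0.05, and the part of smooth muscle RNA in the Pde5a values was not tested.

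**Figure D3:**
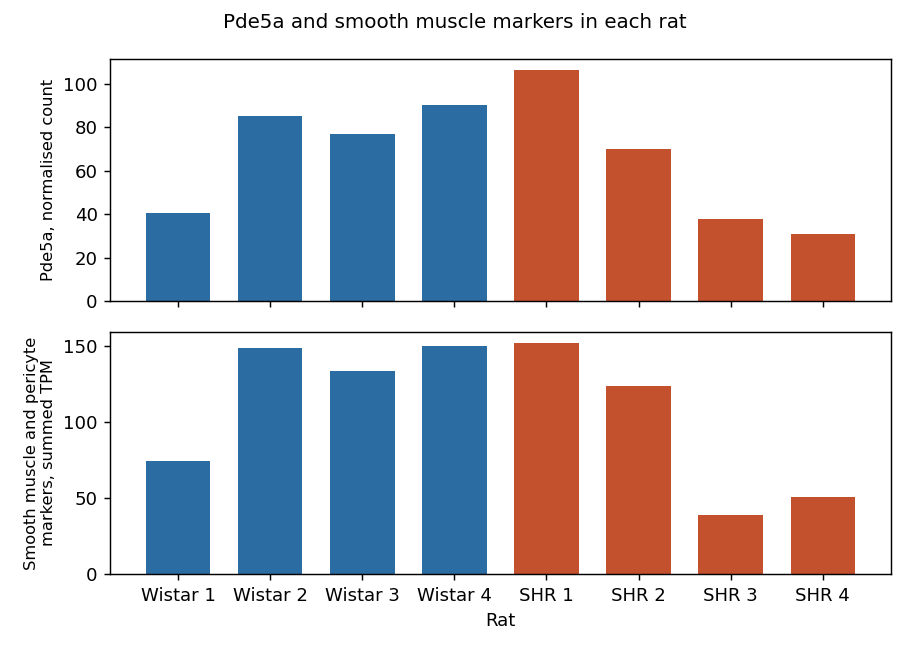
Normalised count of Pde5a (upper panel) and summed TPM of 7 smooth muscle and pericyte markers (lower panel) in each rat, with Wistar bars in blue and SHR bars in red. Both panels are lowest in Wistar 1, SHR 3 and SHR 4, where Pde5a had 31 to 40.4 normalised counts and the markers 39.1 to 74.8 TPM. Tagln made up most of the marker sum except in SHR 3 and SHR 4.

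**Figure D4:**
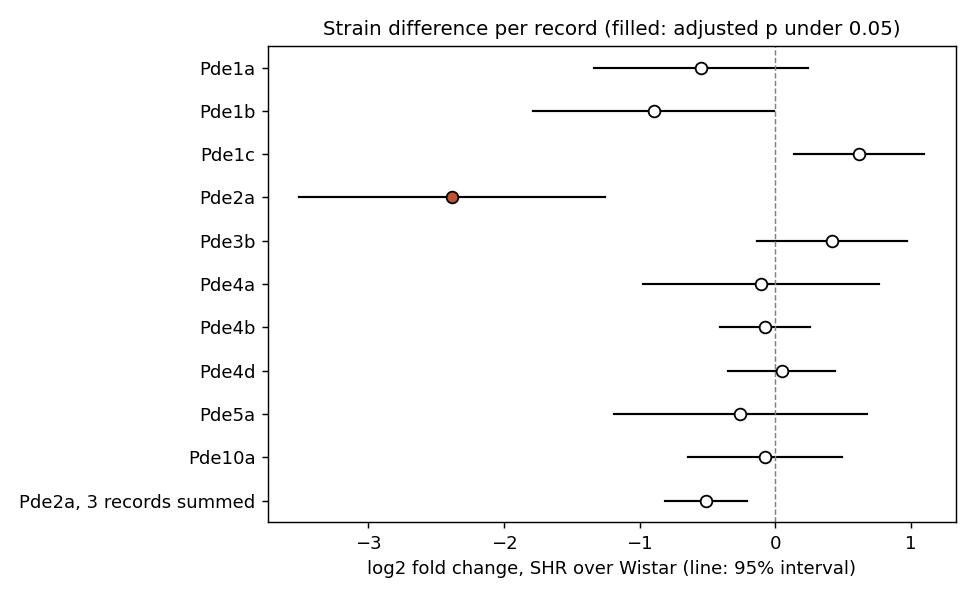
The log2 fold change of each record, SHR over Wistar, with its 95% interval as a line, and that of Pde2a summed over its 3 records at the bottom. The record of Pde2a is the only filled point, at -2.38, whereas the summed gene lies at -0.51.

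Levels were compared between the 10 records in TPM. Pde4b was highest, with 12.4 to 22 TPM over the 8 rats, and it held 46.8% ± 4.67 of the summed TPM of the 10 records for Wistar and 49.5% ± 2.97 for SHR (SD over 4 rats). Pde4d followed with 4.15 to 6.71 TPM and Pde10a with 2.03 to 4.42 TPM. In all 8 rats Pde4b was above Pde4d and Pde4d above Pde10a (exact sign-flip permutation test within rats, adjusted p = 0.0352 for each over 9 pairs of neighbours, from an unadjusted p of 0.00781, the smallest that 8 rats allow). With 7 rats this test could not reach the threshold after adjustment.

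Below Pde10a no neighbours in the order differed beyond their spread. By mean TPM over the 8 rats they were Pde2a (2.14), Pde1c (2.12), Pde1b (1.07), Pde1a (1.03), Pde3b (0.896), Pde5a (0.866) and Pde4a (0.726), with adjusted p from 0.0938 to 0.906 in the exact sign-flip permutation test. The record of Pde2a was the third of the 10 in Wistar, with 1.36 to 4.98 TPM, and the last in SHR, with 0.235 to 1.28 TPM. This is the place of 1 record and not of the gene. The Pde2a record NM_001270604, which is outside the 10, alone averaged 4.57 TPM over the 8 rats (2.33 to 6.16), against 3.36 for Pde10a. Neither the order nor the shares of summed TPM count the other records of Pde2a and Pde4d. Pde1c was the fifth in Wistar and the fourth in SHR. The records specific for cAMP held 64.1% ± 4.09 of the summed TPM in Wistar and 69.3% ± 3.63 in SHR, and Pde5a, the one of the 10 specific for cGMP, held 2.66% ± 0.996 and 2.58% ± 1.71 (SD over 4 rats). These are shares of the 10 records and not of all phosphodiesterases in the ganglion. They leave out Pde9a, which is specific for cGMP and alone averaged 43 TPM over the 8 rats (32.5 to 53.3). The 10 records together summed to 27.3 to 42 TPM per rat.

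**Figure D5:**
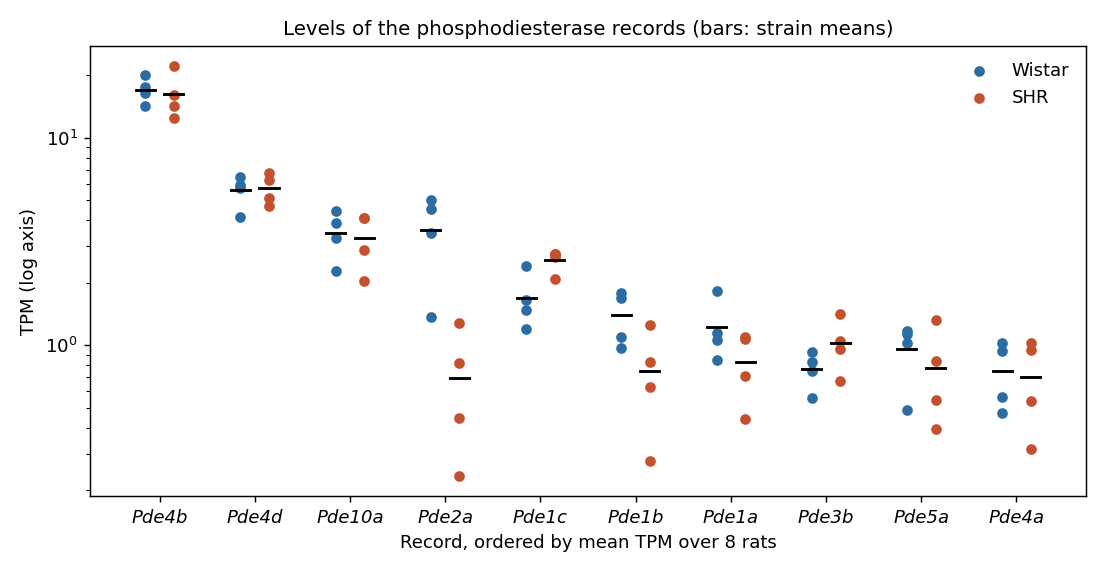
TPM of the 10 records in every rat on a log axis, ordered by the mean over 8 rats, with Wistar points in blue, SHR points in red and black bars at the strain means. Pde4b lies above the others in both strains, at 12.4 to 22 TPM, and the record of Pde2a spans the widest range on this axis, from 0.235 to 4.98 TPM.

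The other catalytic phosphodiesterases were listed as 11 genes, of which 10 had a record. None of their 12 records passed the threshold in edgeR, where 4 had an unadjusted p under 0.05, and DESeq2 with the length offset called 2 of them, Pde6b and Pde11a. Pde6b, known as a subunit of the cGMP phosphodiesterase of rod photoreceptors, ranged from 3.84 to 22.8 normalised counts among Wistar rats and from 16.9 to 65.9 among SHR (log2 fold change 1.78, standard error 0.565, adjusted p = 0.148 from edgeR). Its level was 0.393 TPM on average, below that of each of the 10 records. The record NM_001127481 of Pde11a, which cleaves both nucleotides, ranged from 72.1 to 109 normalised counts among Wistar rats and from 10.1 to 46.1 among SHR (log2 fold change -1.76, standard error 0.488, adjusted p = 0.0999 from edgeR). Pde9a, a phosphodiesterase specific for cGMP that was singled out after its values were seen, was above all 10 records, with a mean of 43 TPM over the 8 rats and a log2 fold change of -0.06 (adjusted p = 0.878 from edgeR).

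Genes that make, sense or scaffold cyclic nucleotides were counted for comparison. Of 40 tested records on these lists 5 passed (12.5%, against 2.85% of all tested records), all of them lower in SHR. They were the cyclase genes Adcy10 (soluble adenylyl cyclase) and Gucy1a1 (a subunit of the nitric oxide receptor), and the kinase genes Prkacb, Prkar1a (catalytic and regulatory subunits of the cAMP-dependent kinase) and Prkg2 (a cGMP-dependent kinase). The study had already reported each of these 5 genes as differing between the strains in the same samples, Gucy1a1 as Gucy1a3. The lists were chosen with earlier results of these data known, so their share of calls is no independent evidence. The largest differences were those of Prkg2, with 709 ± 195 normalised counts for Wistar and 249.6 ± 39.6 for SHR, and Adcy10, with 484 ± 139.9 and 192 ± 21.6 (SD over 4 rats). Gucy1a1, Prkacb and Prkar1a had log2 fold changes of -0.43, -0.51 and -0.33. The count of 5 dropped to 2 when the counts were scaled by upper quartiles or when TPM was tested. None of the 8 records of calmodulin and phosphodiesterase scaffolds passed in edgeR, and 1 of them had an unadjusted p under 0.05. No scaffold or calmodulin record passed in DESeq2.

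Pde2a is also one of the genes that the study listed under phosphoric ester hydrolase activity, a class of enzymes that holds phosphodiesterases, phosphatases and phospholipases. The study chose that list on these same samples, so its members had to differ, and their number is no independent evidence. Of 36 tested records of the list, with Pde11a added from the text, 10 passed the threshold in edgeR, 3 of them higher and 7 lower in SHR. The lower ones were Nt5dc1, Lpin2, Mtmr1, Sgpp2, Napepld, Smpdl3b and Pde2a, and the higher ones Ptprn2, Ptp4a1 and Plcxd2. Among them were lipid phosphatases and related enzymes (Lpin2, Mtmr1, Sgpp2, Smpdl3b) and members of the protein tyrosine phosphatase family (Ptprn2, Ptp4a1). Pde2a had the largest log2 fold change of the 10 and also the largest standard error, 0.505 against 0.0914 to 0.32 for the others. DESeq2 with the length offset called 30 of these records.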

How the data were processed

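RNA of 1 right stellate ganglion per rat was sequenced as 75-base read pairs on an Illumina instrument. The labels give a stranded mRNA kit, whereas the methods of the study describe SMARTer amplification. Per the file headers and the labels, the authors quantified the reads with Salmon 0.8.2 against RefSeq transcripts of rat build rn6, with corrections for GC and positional bias, after FastQC 0.11.7. The deposited values are an estimated count and a TPM for each record, with its effective length, and the authors did not scale the counts between rats. Reads shared by records are divided by Salmon's model, which can move counts between records of a gene without changing their sum.

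The estimated counts were rounded and fitted with edgeR 4.0.16 in R 4.3.3 (TMM scaling, filterByExpr, glmQLFit and glmQLFTest with strain as the only term), with Benjamini-Hochberg adjustment over all tested records. Intervals are 95% and use the test's degrees of freedom. Depth, from 25820299 to 35509074 counts per rat, limits the precision of the records with the fewest counts. The alternatives were other scalings and filters, sums per gene, DESeq2 1.42.0 (its length offset used or omitted), limma 3.58.1 on log2 TPM, a block for the replicate number, and fits from which 1 rat was left out. The fits were tested on simulated data. Records were paired with symbols through RefSeq identifiers of build GRCr8, which matched 17360 of 18314 records. Coordinates are given only for promoter windows, in that build.

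The members and gene lists were chosen with earlier results of these data known. The rule for names took all 10 members, every listed record past the threshold, Pde6b and Pde11a. Marker lists covered sympathetic neurons, glia, endothelium, smooth muscle and pericytes, macrophages, adipocytes, striated muscle and fibroblasts. Between replicates of a strain the counts differed by far more than sampling noise (chi-square per degree of freedom from 23.3 to 121), so all rats were counted singly.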

Additional observations from a re-analysis of the deposited data

Results flagged for a closer look

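Among 28 groups of 4 rats, made of the normalised counts of the 10 phosphodiesterase records, the gene sums of Pde2a and Pde4d, the share of NM_031079 in Pde2a and the total count, no rat lay far enough from the others of its strain to pass Dixon's limit, where chance alone gives 1.4.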

How the results depend on the processing

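The call of the Pde2a record held in 9 of 10 alternatives that kept all 8 rats, with an adjusted p from 2.56e-06 in DESeq2 to 0.0437 in limma on log2(TPM + 0.1). It ended when records were summed to genes and tested in edgeR, where 0 of the 10 members passed. The sums were not tested in DESeq2. Leaving out one replicate gave 0 to 1 members past the threshold. The other 9 members passed in none of the fits. Across the fits that left out one replicate, the log2 fold change ran from -0.33 to 0.11 for Pde4a, from -0.18 to 0.023 for Pde4b, from -0.057 to 0.12 for Pde4d and from -0.24 to 0.084 for Pde10a, so their signs are not determined. Of the neighbour pairs in the level order, 2 passed with 8 rats and 0 in every comparison without one replicate. With 7 rats, 2 pairs at the smallest possible p would not pass after adjustment.

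The other catalytic phosphodiesterases gave 2 calls in DESeq2 with the length offset, 1 without it and 1 in limma on log2(TPM + 1), and 0 to 0 when leaving out one replicate. The cyclic nucleotide pathway lists gave 2 calls with upper-quartile scaling and 2 in limma with either pseudocount, and 2 to 4 when leaving out one replicate. The ester hydrolase list gave 30 calls in DESeq2 with the length offset and 29 without it, and 5 to 13 when leaving out one replicate. Over all records 389 passed, against 851 and 782 in DESeq2 with and without the offset, and 237 to 454 when leaving out one replicate. The cause of these differences was not tested.

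With the replicate number as a block the counts were 132 over all records, 1 in the pathway lists (Adcy10) and 5 in the ester hydrolase list, and Pde2a still passed, with a log2 fold change of -2.44 (adjusted p = 0.026 in edgeR). The numbers did not pair the rats, since deviations of rats with the same number correlated at -0.29 to -0.0381.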

Other observations

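Pde11a, which is outside the 10 records studied, had a pattern among its own records like that of Pde2a, and it was singled out after its values were seen. Its record NM_001127481 held 70.2%, 72.4%, 71.2% and 81% of the reads assigned to the gene's 3 records in Wistar 1 to 4, and 12%, 31.3%, 66% and 52.4% in SHR 1 to 4. Every SHR lay below every Wistar rat (exact permutation test, p = 0.02857, not adjusted). The gene as a whole came to 124 ± 22.9 normalised counts for Wistar and 65.2 ± 22.3 for SHR (SD over 4 rats), and the log2 difference of -0.91, with a standard error of 0.288, did not pass the threshold (edgeR, adjusted p = 0.135). With 25 to 161 estimated counts per rat over the 3 records, and sums that were whole in 4 of 8 rats, the shares rest on few reads that are in part divided with other records.

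The summed levels of all 8 marker lists overlapped between the strains. Of the 14 tested records of sympathetic neuron genes 2 passed, where 2.85% of all tested records did. Both were records of Ddc (aromatic amino acid decarboxylase) and lower in SHR. The list summed to 41300 to 46500 TPM in Wistar and 41000 to 47800 TPM in SHR. In edgeR no record passed for satellite glia and Schwann cells (2430 to 2930 TPM in Wistar, 2190 to 2820 in SHR), endothelium (32.2 to 57.4 and 27 to 48.5 TPM), macrophages (63.8 to 98.6 and 29.1 to 128 TPM), fibroblasts (761 to 1310 and 506 to 1570 TPM), adipocytes or striated muscle (42.2 to 54.4 and 49.5 to 58.6 TPM). At an unadjusted p under 0.05 there were 4 of the 16 tested records of glia. For adipocytes and for striated muscle it was 1 of 5 each, and for endothelium, macrophages and fibroblasts 0. Over all tested records 16.8% had such a p. DESeq2 with the length offset called 2 records of glia and 1 of adipocytes.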
